A study of Oryza sativa Japonica Group with 6 samples.

Results

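Chitinases and pathogenesis-related (PR) proteins were followed in rice seedling shoots through drying and re-watering. The set held 9 loci of the 55801 in the expression table. It was given as a list of locus numbers, chosen with earlier results of these data known, so its counts of calls are a description. The set comprised 6 chitinase loci, among them CHIT3 (LOC_Os04g41680), and the 3 PR loci PR1a (LOC_Os07g03710), PR1b (LOC_Os01g28450) and PBZ1 (LOC_Os12g36880). Each locus had 1 transcript model of the 66153 listed, and 9 of 9 passed the filter on low values that left 26790 transcripts for testing. The question was how induction by dehydration compared with induction by rehydration.

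All plants were wild-type Nipponbare (Oryza sativa ssp. japonica) grown under continuous light. The control shoots came from untreated 10-day-old seedlings, the dehydration shoots from 10-day-old seedlings air-dried for 8 h, and the rehydration shoots from 11-day-old seedlings given 24 h of re-watering after the same 8 h of drying. There were 2 RNA-seq libraries per condition, labelled as biological replicates, 6 in all. The control was not sampled at 11 days, so that age and treatment cannot be told apart in comparisons with the rehydrated shoots.

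Chitinases are enzymes that cut chitin, a polymer of fungal cell walls and insect cuticles that plants do not make, and they are counted among the PR proteins. They fall into glycosyl hydrolase families with unrelated folds, and class III chitinases are a separate family from the class I type. PR1 proteins are small secreted proteins widely used as markers of defence responses, and PBZ1 is a rice protein of the Bet v I type, named for its induction by the fungicide probenazole. PR genes respond to pathogens, to hormones such as salicylic acid and jasmonic acid (JA), and to some abiotic stresses.

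The study designed primers for quantitative PCR on the CHIT3 transcript, which lies on chromosome 4. The pair is shown here because it identifies the transcript that the study took as an example of a rehydration gene. Each primer is 20 bases long, written 5′ to 3′, and the capitals mark the last 5 bases, the 3′ end from which the polymerase extends. The forward primer has a GC content of 50.0% and the reverse primer of 40.0%.
LOC_Os04g41680_F: gctcatcgatcaggaCTGAA
LOC_Os04g41680_R: tagtgtactctatgcTCATC

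Expression was deposited in RPKM, reads scaled by the length of the transcript and the size of the library. The depth of the other libraries relative to control 1, read from the steps of the RPKM values, was between 0.862 and 0.994. The summed RPKM of a library lay between 539105 and 573137, and 29992 to 32606 transcripts were above 0. The 4 loci taken as shoot markers, for example a chlorophyll a-b binding protein (LOC_Os11g13890) and the chloroplast glutamine synthetase OsGS2, were detected in all libraries. The study itself picked LOC_Os11g13890, LOC_Os10g35370 and OsGS2 from these libraries as genes lowered by dehydration, so their direction is not independent evidence. Dehydration against control called 8 of their 9 tested transcripts lower, and 0 passed the test for rehydration against control. In bulk shoots, fewer cells of a type and less RNA per cell cannot be told apart, and the part of these lower marker levels in the results below was not tested.

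For each of the 26790 transcripts, conditions were compared on the log2(RPKM + 1) scale with limma, and a transcript was called at a Benjamini-Hochberg adjusted p under 0.01 and a fold over 2, the thresholds of the study. A log2 difference is therefore on the log2(RPKM + 1) scale and understates the change of transcripts near 0. The conditions were fitted together, with 2 libraries each. Each adjusted p therefore rests on 1 estimate of the spread within conditions, taken over all libraries, also those of the condition outside the comparison. The smallest p of a two-sided exact permutation test between 2 and 2 libraries is 0.33. At the same thresholds the study, which used edgeR, reported more differentially expressed transcripts in each comparison than were called here. A transcript not called here may therefore be among those of the study.

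After dehydration, 4 of the 6 chitinases were called higher than the control and 1 PR locus, PR1b, was called lower. Of the 4 chitinases, LOC_Os08g40690 and LOC_Os11g47510 passed the filter on low values only through the dehydration libraries, where they were high, so that their place in the count depends on that filter and the count is a description. With no filter LOC_Os08g40690 was still called and LOC_Os11g47510 was not. Over all tested transcripts, 21.9% were called in this comparison, 8.79% higher and 13.1% lower. After rehydration, 0 of the 9 loci were called against the control, where 0.84% of all transcripts were called, 0.773% higher and 0.0672% lower. The adjustment depends on all transcripts of a comparison, so counts of calls do not compare the evidence at a locus between treatments. The unadjusted limma p of LOC_Os06g51060 was 0.000136 for rehydration (not called) and 0.000312 for dehydration (called). For PR1b the values were 0.000222 (not called) and 0.000371 (called) in the same order. At an unadjusted p under 0.05 and a fold over 2, 4 of the 9 differed from the control after rehydration, namely CHIT3, LOC_Os06g51060, LOC_Os05g33130 and PR1b, and 12.8% of all transcripts did. At the same limits 6 of the 9 differed from the control after dehydration (39.1% of all transcripts) and 3 between the treatments (24.6%). Between rehydration and dehydration 1 of the 9 was called, LOC_Os08g40690, which was lower after rehydration, and 5.15% of all transcripts were called there, 4.21% higher and 0.941% lower.

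**Figure D1:**
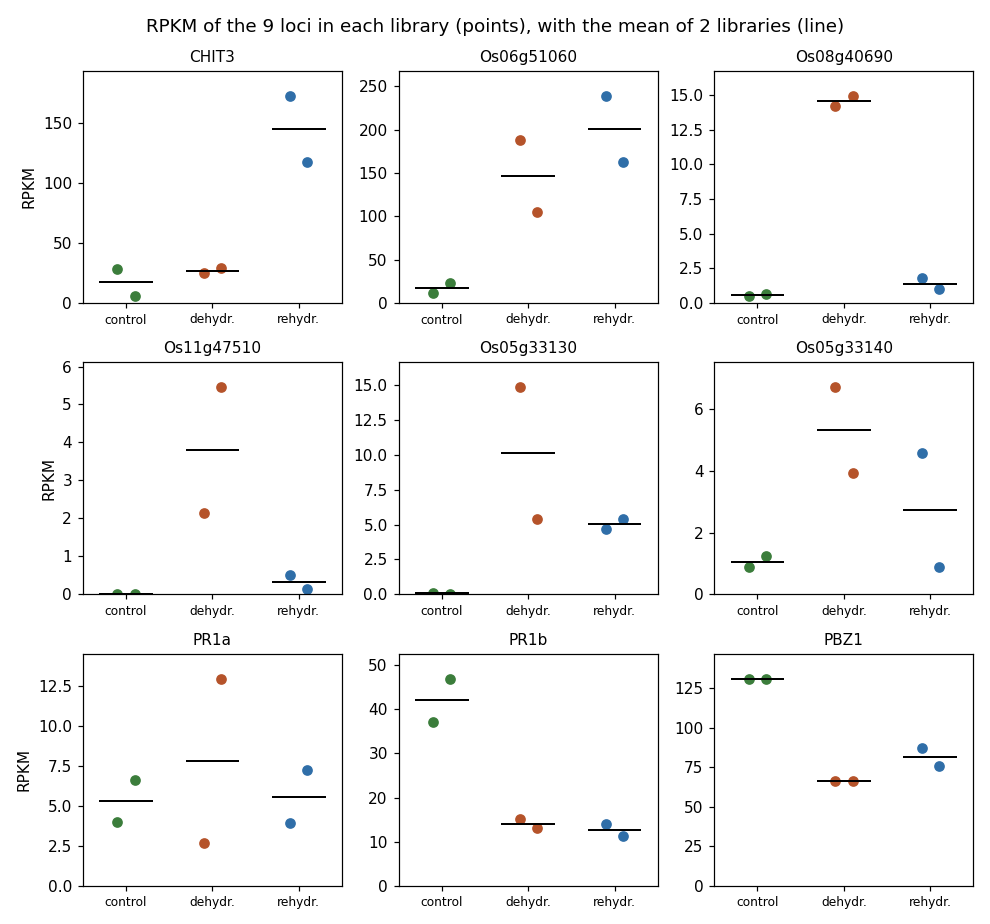
RPKM (vertical axis, linear, from 0, own scale per panel) of the 9 loci in control, dehydration and rehydration shoots; points are single libraries and the line is the mean of 2. CHIT3 is at 173 and 117 RPKM in the rehydration libraries and at most 28.7 elsewhere, LOC_Os08g40690 is high in the dehydration libraries alone, and PR1b and PBZ1 are lower in both treatments than in both controls.

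CHIT3 had its highest levels in the rehydration libraries. It stood at 28.3 and 5.75 RPKM in the control libraries, at 25.2 and 28.7 after dehydration and at 173 and 117 after rehydration. Both rehydration libraries lay above all 4 others, and the dehydration libraries overlapped with the control. The means were 17.0 ± 16.0 RPKM (SD, n = 2), 26.9 ± 2.46 and 145 ± 39.4, so that the rehydration mean was 8.50 times the control mean and 5.38 times the dehydration mean. The log2 difference was 3.35 ± 0.65 (SE) for rehydration against control (adjusted p = 0.0461 in limma with Benjamini-Hochberg), 2.36 ± 0.65 against dehydration (adjusted p = 0.0497) and 0.99 ± 0.65 for dehydration against control (adjusted p = 0.263). None of these passed 0.01. The SE is the same in each comparison because the spread is shared, so the gap between the controls also enters the comparison of rehydration with dehydration. Among the 26790 transcripts 149 had a larger difference between rehydration and control than CHIT3. CHIT3 was picked by the study as an example of a rehydration gene from these same libraries, so its direction is not independent evidence. The study tested with edgeR and counted CHIT3 among its differentially expressed genes. By quantitative PCR it also reported CHIT3 as raised by rehydration, and still raised after a longer re-watering.

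The control libraries disagreed on CHIT3. Control 1 was 4.93 times control 2, and a ratio of that size in either direction was seen for 0.408% of the 9800 transcripts with a mean of at least 10 RPKM in the control, 26 of which were higher in control 1. Without control 2 the log2 difference between dehydration and control was -0.074, and without control 1 it was 2.05. For rehydration against control the same omissions gave 2.29 and 4.41, so that the rehydration libraries were higher whichever control was used. In rank among the tested transcripts CHIT3 stood at percentile 76.6 in the control, 84.7 after dehydration and 98.2 after rehydration.

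LOC_Os06g51060, annotated as an endochitinase precursor on chromosome 6, was the most abundant of the 6 chitinases in the dried shoots and stayed high after re-watering. Its level was 11.6 and 22.4 RPKM in control shoots, 188 and 105 in dehydrated and 239 and 162 in rehydrated shoots. All treated libraries were above both controls, and the dehydration and rehydration libraries overlapped. The mean rose from 17.0 ± 7.64 RPKM (SD, n = 2) to 147 ± 58.5 after dehydration, 8.61 times the control, with a log2 difference of 3.04 ± 0.42 (limma adjusted p = 0.00302, called). After rehydration the mean was 201 ± 54.6 RPKM, 11.8 times the control. That difference was larger, 3.52 ± 0.42 on the log2 scale, and was not called, because its adjusted p of 0.0126 (limma, Benjamini-Hochberg) was just above 0.01. Rehydration and dehydration differed by 0.48 ± 0.42 (adjusted p = 0.436). CHIT3 and LOC_Os06g51060 had nearly the same mean in the control, though CHIT3 was higher in control 1 and LOC_Os06g51060 in control 2. In the dried shoots LOC_Os06g51060 was called higher and CHIT3 was not, and the difference between their responses was not tested.

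LOC_Os05g33130, a chitinase locus on chromosome 5, was near 0 in the control and present in both treatments. It was at 0.122 and 0 RPKM in control shoots, 14.9 and 5.41 in dehydrated and 4.69 and 5.38 in rehydrated shoots. In the smallest whole numbers of reads that give these values in all 6 libraries, this is 1 and 0 reads against 110 and 44 and against 36 and 38. The log2 difference was 3.25 ± 0.45 for dehydration (limma adjusted p = 0.00319, called) and 2.51 ± 0.45 for rehydration (adjusted p = 0.0387, not called). The rehydration libraries were both below the dehydration libraries, by 0.74 ± 0.45 on the log2 scale, and this did not pass the test (adjusted p = 0.280).

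Its neighbour LOC_Os05g33140 is the next locus number on the same chromosome. Its level was 0.884 and 1.24 RPKM in control shoots, 6.71 and 3.94 in dehydrated and 4.58 and 0.879 in rehydrated shoots. Both dehydration libraries were above the control, and the rehydration libraries spanned the range from the control level to that of dehydration, with a ratio of 5.21 between them. Its dehydration mean was 5.02 times the control, and the log2 difference of 1.59 ± 0.55 was not called (limma adjusted p = 0.0610). The loci LOC_Os05g33130 and LOC_Os05g33140 are adjacent chitinase loci, and how reads matching both were assigned is not given in the sources used here, so their separate levels are uncertain.

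LOC_Os08g40690, annotated as a chitinase (EC 3.2.1.14) on chromosome 8, was high in the dried shoots and low again after re-watering. The control libraries had 0.475 and 0.647 RPKM, the dehydration libraries 14.2 and 14.9 and the rehydration libraries 1.77 and 0.965. The 3 conditions did not overlap, with rehydration slightly above the control. The dehydration mean of 14.6 ± 0.528 RPKM (SD, n = 2) was 26.0 times the control mean and 10.6 times the rehydration mean. The log2 difference was 3.32 ± 0.29 for dehydration against control (limma adjusted p = 0.00089) and -2.74 ± 0.29 for rehydration against dehydration (adjusted p = 0.00532), both called. The dehydration libraries alone brought the locus into the test, so neither call is independent support, and the second was lost with no filter. For rehydration against control the log2 difference was 0.58 ± 0.29 and not called (limma adjusted p = 0.328), with 14 and 7 reads against 4 and 5 in the smallest whole numbers. The call between rehydration and dehydration was lost when any 1 of the 6 libraries was left out, with adjusted p from 0.0128 to 0.0472. The log2 difference stayed between -2.99 and -2.49 in these omissions, and in 4 of the 6 no transcript at all was called in this comparison, against 1380 with all libraries. The dehydration call held in each of the 6 omissions.

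LOC_Os11g47510, the class III chitinase homologue OsChib3H-c on chromosome 11, showed the same order at a lower level. It was listed at 0 in both control libraries, at 2.13 and 5.46 RPKM after dehydration and at 0.514 and 0.140 after rehydration. The smallest whole numbers of reads were 16 and 45 in dehydrated shoots and 4 and 1 in rehydrated shoots. The log2 difference of 2.17 ± 0.43 for dehydration had an adjusted p of 0.00994 in limma, next to the threshold. Since the dehydration libraries alone brought the locus into the test, this call is no independent support, and with no filter the adjusted p was 0.0163. Rehydration was lower than dehydration by 11.6 times in the means, with a log2 difference of -1.78 ± 0.43 (limma adjusted p = 0.0348, not called).

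**Figure D2:**
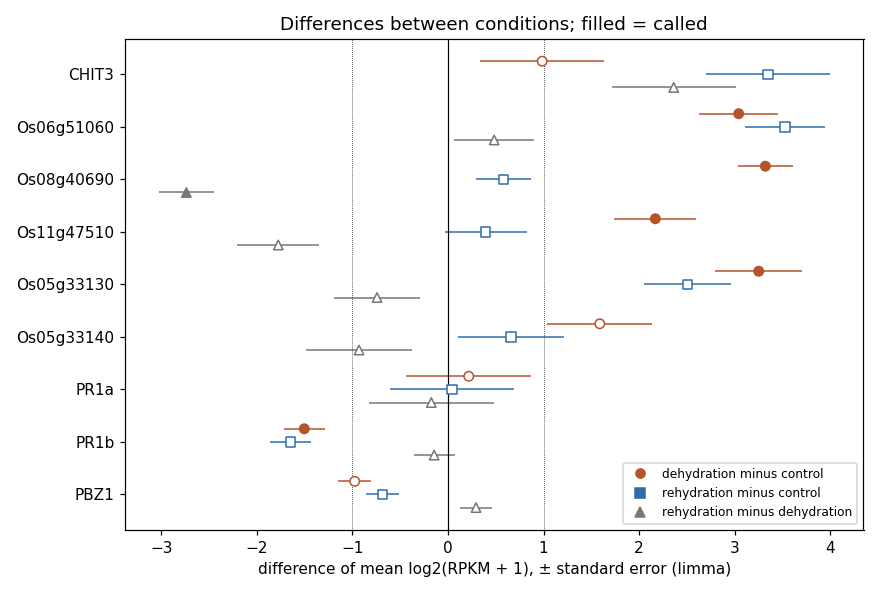
Difference of mean log2(RPKM + 1) (horizontal axis) with its limma standard error for the 9 loci; circles are dehydration minus control, squares rehydration minus control and triangles rehydration minus dehydration, and filled symbols were called. The dotted lines mark a fold of 2. The 4 filled circles on the right are chitinases, PR1b is the filled circle on the left, and LOC_Os08g40690 has the only filled triangle.

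The effects of dehydration and rehydration share the control libraries, and their difference is the comparison of rehydration with dehydration. For that comparison the log2 difference was positive for CHIT3 (2.36) and LOC_Os06g51060 (0.48) and negative for the other 4 chitinases, from -2.74 for LOC_Os08g40690 to -0.74 for LOC_Os05g33130. In 2 of the 9 loci, CHIT3 and PBZ1, both rehydration libraries lay above both dehydration libraries, and in 3, LOC_Os08g40690, LOC_Os11g47510 and LOC_Os05g33130, they lay below. Over all tested transcripts 43.0% lay above and 22.7% below. LOC_Os08g40690 and LOC_Os11g47510 passed the filter on low values only through their high dehydration libraries, so the counts and medians given here are a description. LOC_Os05g33130 lay below narrowly, at 5.38 RPKM in rehydration 2 against 5.41 in dehydration 2. Against the control, the dehydration libraries lay above in 5 of the 9 loci and below in 2, and among all transcripts 28.0% lay above and 45.8% below. The rehydration libraries lay above both controls in 5 loci and below in 2, where 26.9% and 26.0% of all transcripts did. The median log2 difference of the 6 chitinases was 2.61 for dehydration and 1.58 for rehydration against control, and -0.84 between the treatments. All tested transcripts had medians of -0.30, -0.00 and 0.24.

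The summed level of the 6 chitinases was higher in both treatments, a description with no test. It was 41.5 and 30.1 RPKM in control shoots, 251 and 164 in dehydrated and 424 and 287 in rehydrated shoots. The conditions did not overlap. The mean sums were 35.8 ± 8.05 RPKM (SD, n = 2), 207 ± 61.8 and 355 ± 97.0, that is 5.80 and 9.93 times the control. LOC_Os06g51060 made up 74.9% and 64.3% of the sum after dehydration and 56.5% and 56.6% after rehydration. CHIT3 held 10.0% and 17.5% after dehydration and 40.8% in each rehydration library. In the control its share was 68.4% in one library and 19.1% in the other. Thus the make-up of the sum was alike in the replicate libraries after rehydration and unlike in the controls.

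**Figure D3:**
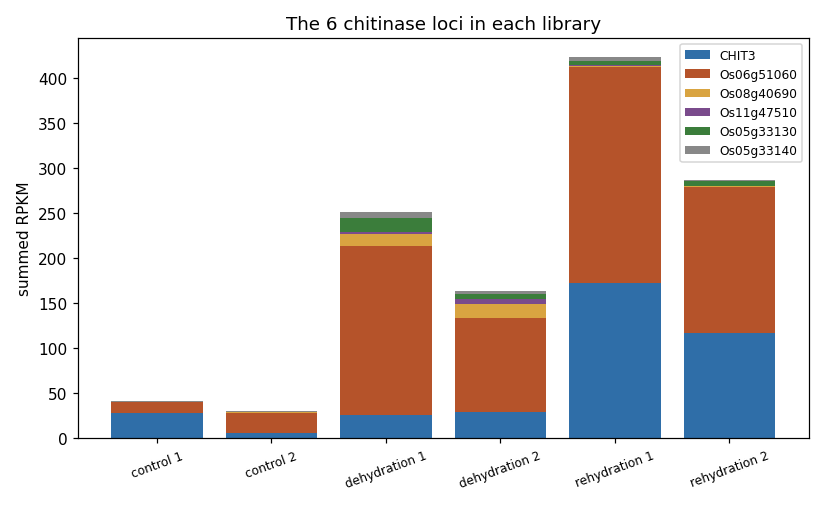
Stacked bars of RPKM (vertical axis, from 0) of the 6 chitinase loci in each of the 6 libraries. The sum is 41.5 or less in the controls, 164 and 251 after dehydration and 287 and 424 after rehydration, and CHIT3 (blue) and LOC_Os06g51060 (red-brown) make up most of it.

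The 3 PR loci did not follow the chitinases. PR1b, on chromosome 1, was at 37.1 and 47.0 RPKM in control shoots, 15.2 and 13.0 in dehydrated and 14.0 and 11.4 in rehydrated shoots. Both treatments lay below both controls and overlapped with each other. The control mean was 2.98 times the dehydration mean and 3.31 times the rehydration mean. PR1b fell by 1.5 ± 0.21 on the log2 scale after dehydration (limma adjusted p = 0.00334, called), and the difference after rehydration was -1.65 ± 0.21 with an adjusted p of 0.0162, not called. Re-watering for 24 h left PR1b at -0.14 ± 0.21 relative to the dried shoots (limma adjusted p = 0.660). The dehydration call of PR1b was lost without control 1, control 2, dehydration 1 or dehydration 2, where the log2 difference was between -1.67 and -1.34 and the adjusted p at most 0.0236.

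PBZ1, on chromosome 12, was the most abundant of the 9 loci in the control. Its level was 131 and 131 RPKM in control shoots, 66.0 and 66.2 in dehydrated and 87.4 and 75.6 in rehydrated shoots. The conditions did not overlap, with dehydration lowest and rehydration between. The control mean was 1.98 times the dehydration mean, and the log2 difference of -0.98 ± 0.17 had a limma adjusted p of 0.00667. PBZ1 was not called, since the fold was just under 2. For rehydration the log2 difference was -0.68 ± 0.17 (limma adjusted p = 0.0858), and from dehydration to rehydration it was 0.29 ± 0.17 (adjusted p = 0.264). Under median-ratio scaling the last of these was -0.062. The difference for dehydration against control was then -0.62 (limma adjusted p = 0.0412), short of both limits.

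PR1a, on chromosome 7, showed no direction. It was at 4.0 and 6.63 RPKM in control shoots, 2.70 and 13.0 in dehydrated and 3.90 and 7.27 in rehydrated shoots. The 3 conditions overlapped, and dehydration 2 was 4.81 times dehydration 1. The log2 differences were 0.22 ± 0.65 for dehydration and 0.04 ± 0.65 for rehydration against control (limma adjusted p = 0.809 and 0.984). With this spread a change of PR1a was not detectable. The 3 PR loci summed to 172 and 185 RPKM in control shoots, 83.9 and 92.2 in dehydrated and 105 and 94.2 in rehydrated shoots, with PBZ1 at 71.0% to 83.0% of each sum.

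The chitinase and PR gene classes were also followed in 6 further loci that the hormone-response lists of the study annotate, with 7 tested transcripts. In dehydration against control 5 of the 7 were called, 4 higher and 1 lower, and in rehydration against control 2 were called, both higher. Over all transcripts 8.79% were called higher and 13.1% lower for dehydration, and 0.773% higher for rehydration. The median log2 differences of the 7 were 2.52 and 1.85. The study reported that genes responding to abscisic acid or JA overlapped with its dehydration and rehydration genes. The 6 loci thus come from lists already rich in such genes, and their counts are a description. In dehydrated and rehydrated shoots the highest means of the 7 were those of 2 transcripts of thaumatin-like proteins, a PR class related to the sweet protein thaumatin. In the control the highest mean, 20.1 RPKM, was that of the class III chitinase LOC_Os10g28050. LOC_Os03g14050 (model 1) stood at 11.1 and 6.38 RPKM in control shoots, 240 and 214 in dehydrated and 87.8 and 68.5 in rehydrated shoots, with log2 differences of 4.59 and 3.06 that were both called (adjusted p = 0.007 in limma for rehydration). LOC_Os03g46060 was at 3.01 and 3.90, 52.9 and 32.8, and 61.9 and 37.6 RPKM in the same order, and was also called in both treatments. In these 2 loci, all treated libraries were above both controls. The second model of LOC_Os03g14050 differed by 1.93 after dehydration (limma adjusted p = 0.011), short of the threshold.

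Of the other 4 loci, a glucan endo-1,3-beta-glucosidase GV-like gene (LOC_Os01g71830), whose product would cut the beta-glucans of fungal walls, was at 0.809 and 1.17 RPKM in control shoots, 33.6 and 10.3 in dehydrated and 22.7 and 29.6 in rehydrated shoots. It was called for dehydration (3.32, limma adjusted p = 0.004) and not for rehydration (3.76, adjusted p = 0.019). OsChib3H-a (LOC_Os11g47580), a further class III homologue, was at 0.129 and 0 RPKM in control shoots, 5.43 and 4.81 in dehydrated and 4.0 and 1.95 in rehydrated shoots, and was called for dehydration (2.52, limma adjusted p = 0.003). In both loci all treated libraries lay above both controls, and the rehydration difference of OsChib3H-a, 1.85, was not called either (limma adjusted p = 0.041). The class III chitinase RCB4 (LOC_Os10g28050) was at 13.7 and 26.6, 20.1 and 11.8, and 41.0 and 41.1 RPKM, highest in the rehydration libraries as CHIT3 was. RCB4 was not called in any comparison, and its log2 difference between rehydration and dehydration was 1.36 (limma adjusted p = 0.049). The Bet v I family gene LOC_Os08g28670 moved the other way, from 10.0 and 9.92 RPKM to 1.35 and 1.01 after dehydration, called lower (-2.33, limma adjusted p = 0.009), with 6.87 and 2.19 after rehydration. Its call was lost under median-ratio scaling, under quantile normalization, at a pseudocount of 0.25, with no filter, and without control 1, control 2, dehydration 1 or dehydration 2. Leaving out 1 library reduced the 4 higher calls for dehydration to between 1, without control 1, and 3, and the 2 for rehydration to between 0 and 1.

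A list of defence signalling genes, taken from the same hormone-response lists and with the same limit, was examined in the same way. Among 14 tested transcripts of 11 defence signalling loci (WRKY factors, phenylalanine ammonia-lyases, isochorismate synthase and a salicylic acid-binding protein), 3 were called higher and 1 lower after dehydration, and 1 was called higher after rehydration, against 21.9% and 0.84% of all transcripts called in these comparisons. The medians of the list were -0.20 and 0.23, and the first was 0.11 under median-ratio scaling. The salicylic acid-binding protein 2-like gene LOC_Os01g57770 was at 3.13 and 5.19 RPKM in control shoots, 55.5 and 40.4 in dehydrated and 30.2 and 32.0 in rehydrated shoots, and was the one called in both (3.26 and 2.67). Both models of the WRKY factor LOC_Os11g02480, similar to WRKY 46, were called higher after dehydration by 2.46 and 1.99 on the log2 scale. Phenylalanine ammonia-lyase LOC_Os04g43770, which starts phenylpropanoid and one route of salicylic acid synthesis, was called lower (-1.96, limma adjusted p = 0.005). The call for rehydration was lost with any 1 library left out, and the higher calls for dehydration then numbered 1 to 3. The lower calls of the list numbered 0 in 5 of the 6 omissions and with no filter, and 2 without dehydration 2.

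The JA list of the study, chosen on these same libraries and therefore not independent of their direction, had 14 tested transcripts of 11 loci. After dehydration 6 were called higher and 3 lower, and after rehydration 2 were called higher, where 21.9% and 0.84% of all transcripts were called. The JAZ proteins, repressors of JA signalling whose genes are themselves induced by JA, led the list. JAZ1 was at 5.76 and 14.1 RPKM in control shoots, 275 and 268 in dehydrated and 116 and 188 in rehydrated shoots, with log2 differences of 4.75 and 3.88. The other largest were ZIM18 (3.95), JAZ2 (3.94) and JAZ9 (3.55) for dehydration, and the second call for rehydration was JAZ2 (2.70). As with LOC_Os06g51060, the JAZ1 libraries of both treatments were above both controls. Leaving out 1 library left between 2 and 6 of the higher calls of this list for dehydration and 0 for rehydration.

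The loci beside the 9 on the chromosome were examined for shared patterns. The 5 loci on each side made 80 loci, and 41 of their transcripts were tested. In dehydration against control 14 of the 41 were called, 9 higher and 5 lower, where 21.9% of all transcripts were called. The calls were unevenly spread. Around LOC_Os11g47510, 6 transcripts of 6 loci were tested, of which 5 were called higher after dehydration and 3 lower after rehydration than after dehydration. LOC_Os11g47520, LOC_Os11g47560 and, beside PR1b, LOC_Os01g28474 were among the 9 called higher. They passed the filter on low values only through the dehydration libraries, where they were high, so these counts are a description. LOC_Os11g47500 rose from 0.888 and 1.35 RPKM to 178 and 60.3, with 24.3 and 26.0 after rehydration (5.64 on the log2 scale for dehydration). LOC_Os11g47550 rose from 0 and 0.150 RPKM to 55.0 and 34.6, with 5.15 and 3.52 after rehydration (5.38). LOC_Os11g47530 rose from 0.140 and 0.304 RPKM to 32.9 and 20.5, with 2.09 and 1.78 after rehydration (4.47). These neighbours had the order of LOC_Os11g47510, highest in the dried shoots and lower after re-watering, at higher levels. Sequence likeness between these loci and the sharing of reads were not tested.

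LOC_Os08g40680, next to LOC_Os08g40690, rose from 0.296 and 0.161 RPKM to 21.6 and 18.3 after dehydration and, unlike it, kept 9.62 and 11.3 after rehydration. It was called in both treatments (4.09 and 3.22, limma adjusted p = 0.003 for rehydration). The following values were chosen after they were seen. LOC_Os06g51050, next to LOC_Os06g51060, was at 4.66 and 2.39 RPKM in control shoots, 41.9 and 39.2 in dehydrated and 45.4 and 62.6 in rehydrated shoots, and was called in both treatments (3.24 and 3.63). LOC_Os12g36830, a Bet v I gene near PBZ1 annotated as pathogenesis-related, was at 104 and 132 RPKM in control shoots, 47.1 and 44.5 in dehydrated and 115 and 173 in rehydrated shoots. It was called lower after dehydration (-1.34, limma adjusted p = 0.009) and, unlike PBZ1, overlapped with the control again after re-watering. LOC_Os01g28500, an SCP-like extracellular protein near PR1b, had 20.8 and 5.54 RPKM in control shoots, 43.7 and 52.1 in dehydrated and 114 and 92.1 in rehydrated shoots, the opposite direction to PR1b, and was not called (3.11 for rehydration, limma adjusted p = 0.034).

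**Figure D4:**
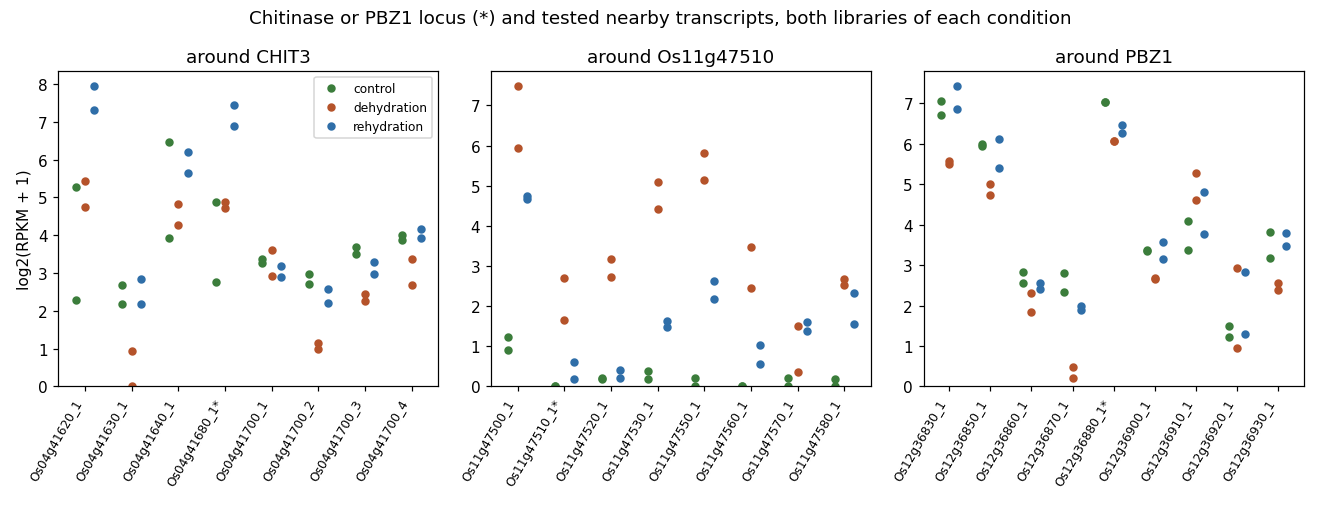
Level as log2(RPKM + 1) (vertical axis) of CHIT3, LOC_Os11g47510 and PBZ1 (asterisk) and of tested transcripts near them in order of locus number; points are single libraries, in green for control, orange for dehydration and blue for rehydration. LOC_Os04g41620 and LOC_Os11g47580 lie outside the 5 loci on each side and were added. Around LOC_Os11g47510 the orange points are highest for most loci, and LOC_Os04g41620 repeats the order of CHIT3, including the gap between the controls.

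The transcripts whose pattern over the 6 libraries was most like that of CHIT3 were sought among 12188 with a mean of at least 10 RPKM in some condition, by Pearson r of log2(RPKM + 1). The closest was LOC_Os04g41620 (r = 0.993), close to CHIT3 on chromosome 4, with 37.6 and 3.90 RPKM in control shoots, 25.9 and 42.6 in dehydrated and 246 and 157 in rehydrated shoots. It shared both the high rehydration level and the gap between the controls. Whether LOC_Os04g41620 and CHIT3 share reads was not tested. The next were LOC_Os01g62880 (model 1, r = 0.988) and LOC_Os09g30412 (r = 0.987), with smaller differences, the latter from 156 and 126 RPKM in the control to 250 and 224 after rehydration. An r over 0.95 with CHIT3 was reached by 15 transcripts. For LOC_Os08g40690, with the largest log2 difference on dehydration of the 9 loci at a pseudocount of 1 (at 0.25 it was LOC_Os05g33130, with 4.92 against 4.20), 531 transcripts were over 0.95. The closest to LOC_Os08g40690 were a zinc finger protein (LOC_Os04g56750), model 3 of a jacalin-like lectin gene (LOC_Os01g24710) and model 5 of LOC_Os12g18650, each with r = 0.997. The lectin model was at 0.148 and 0 RPKM in control shoots, 12.8 and 13.0 in dehydrated and 0.949 and 0.516 in rehydrated shoots, close to the levels of the chitinase itself. These coefficients describe 6 libraries in 3 conditions and follow in part from the shared differences between conditions.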

How the data were processed

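Shoot mRNA of 3 conditions was sequenced as stranded libraries on a MiSeq, 2 libraries per condition. The authors mapped trimmed reads to the rice genome (MSU annotation) in CLC Genomics Workbench with 1 mismatch allowed, deposited RPKM per transcript model and tested for differences with edgeR. RPKM are not counts, so that edgeR was not run here. The deposited RPKM were taken to log2 after adding 1, and the 3 conditions were fitted together with limma 3.58.1 under R 4.3.3, using trended, robust moderation (3 residual degrees of freedom, prior median 3.14). Testing was limited to transcripts reaching 1 RPKM in 2 or more libraries, with Benjamini-Hochberg adjustment over all of them. The procedure was tested on simulated data. Other steps used Python 3.11.15, numpy 2.4.6 and pandas 2.3.3.

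The 9 loci, the lists and the tests were chosen with earlier results of these data known. Named were the 9 loci, the further PR loci, up to 4 of the largest calls of each signalling list, up to 4 neighbours called in the direction of their locus, and the 3 transcripts most like CHIT3 and like the locus with the largest rise of log2(RPKM + 1) on dehydration. Names of PR1a, PR1b and PBZ1 and the chitinase class of LOC_Os05g33130 and LOC_Os05g33140 come with the locus list, and the others from the annotation of the study. The study summarized the reads of its libraries, and depth was used here only relative to control 1. Smallest whole numbers of reads were found where the RPKM of a transcript in all 6 libraries were whole multiples within 0.01. They cover counting only. Alternatives were another pseudocount, filter, scaling, summing per locus, a looser threshold, a replicate block and leaving out each library.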

Additional observations from a re-analysis of the deposited data

Results flagged for a closer look

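LOC_Os08g40690 was singled out because its response differed between the treatments. The log2 difference between rehydration and dehydration, which is the rehydration effect minus the dehydration effect against the shared control, was -2.74 ± 0.29 (limma adjusted p = 0.00532 with Benjamini-Hochberg). Both rehydration libraries, at 1.77 and 0.965 RPKM, were below both dehydration libraries, at 14.2 and 14.9. The dehydration libraries alone brought the locus into the test, so the call is no independent support, and it was lost with no filter. The call was lost with any 1 library left out, while the log2 difference stayed between -2.99 and -2.49.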

How the results depend on the processing

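Of 420 values for the 9 loci under alternatives, 377 kept their direction and side of the threshold, 23 lost the call, 11 gained it and 9 changed sign. The 5 calls of the 9 loci for dehydration against control fell to between 1 and 4 with 1 library left out, 1 of them without control 1. The 0 calls for rehydration against control became 1 with a filter of 5 RPKM, 1 under quantile normalization, 2 with models summed per locus and 4 at an adjusted p under 0.05, and were 0 with 1 library left out. The 1 call between rehydration and dehydration became 0 with no filter, 3 at an adjusted p under 0.05 and 0 with any 1 library left out. LOC_Os06g51060 was called for rehydration under the filter of 5 RPKM, quantile normalization and summing (limma adjusted p = 0.00761, 0.00902 and 0.00353), and PBZ1 for dehydration under quantile normalization (-1.17, adjusted p = 0.00322). The call of LOC_Os11g47510 for dehydration was lost at pseudocounts of 0.25 and 5 and without a filter (limma adjusted p = 0.0104, 0.0170 and 0.0163). That of LOC_Os05g33130 was lost without either control, and that of LOC_Os06g51060 without control 1 or dehydration 1. The cause was not tested.

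With 1 library left out, the log2 difference of PR1a ranged from -0.74 to 1.18 (dehydration against control), -0.33 to 0.42 (rehydration against control) and -1.13 to 0.78 (rehydration against dehydration), that of CHIT3 from -0.074 to 2.05 for dehydration, and that of LOC_Os05g33140 from -0.13 to 1.44 for rehydration. Signs changed for PR1a (dehydration against control -0.087 without control 1 and -0.74 without dehydration 2, rehydration against control -0.26 without control 1 and -0.33 without rehydration 2, rehydration against dehydration 0.78 without dehydration 2 and 0.20 without rehydration 1), CHIT3 (dehydration -0.074 without control 2), LOC_Os05g33140 (rehydration -0.13 without rehydration 1) and PBZ1 (rehydration against dehydration -0.062 under median-ratio scaling).

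Over all transcripts, 5868 were called for dehydration against control (9643 at an adjusted p under 0.05, 1070 to 4497 with 1 library left out), 225 for rehydration against control (23 without a filter, 608 per locus, 1229 at 0.05, 0 to 132 with 1 left out) and 1380 between the treatments (1 without a filter, 3006 per locus, 4942 at 0.05, 0 to 1481 with 1 left out). Median-ratio scaling moved the median log2 difference of all transcripts for dehydration from -0.30 to -0.03, and the share of higher calls from 40.1% to 55.1%, and that between the treatments from 81.7% to 63.1%. With the replicate block the counts were 6230, 257 and 1217. The replicate numbers do not come from shared plants, and deviations of same-numbered libraries correlated by 0.06, 0.13 and 0.20. Under this block LOC_Os11g47510 was not called for dehydration (limma adjusted p = 0.0139), and the other calls of the 9 loci held.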
